A study of Homo sapiens with 3 samples.

Results

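ETV1, ETV4 and ETV5, the PEA3 subgroup of ETS transcription factors, were followed with 6 genes of the feedback loop around the kinase ERK (DUSP6, SPRY2, SPRY4, SPRED1, SPRED2 and FGFR1). Members were taken by gene symbol, and 8 of the 9 are among the 12040 genes of the deposited table. SPRY4 is not listed and was not analysed here. The series sequenced poly(A) RNA from HEK293, an established human embryonic kidney line, and its stated aim was to measure how DICER1 loss affects transcripts. DICER1 was knocked down in 1 library and DROSHA in another by transfection for RNA interference, and the third library was a mock transfection. All titles carry 2.5d, which the labels do not explain, and the 3 groups have 1 library each. Cells of every group, mock included, were a T-REx Flp-In derivative carrying FLAG-tagged DICER1, so the DICER1 row can hold transgene reads. No source used here says whether the transgene was induced.

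When growth factors such as FGFs bind receptors like FGFR1, RAS passes the signal through RAF and MEK to ERK. ERK activity lifts the block that the repressor CIC (Capicua) places on PEA3 genes and several feedback genes. Products of the feedback genes then dampen the pathway at the receptor, at RAS or at ERK itself, and for this reason PEA3, DUSP6 and Sprouty transcripts are widely used as a readout of ERK output.

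The table holds a level per gene in 3 columns and a log2 fold change in 2, and names none of them. In what follows, level A is the numerator of the first deposited fold change, level B the numerator of the second, and the shared level the denominator of both. No knockdown was assigned to either comparison. DICER1 was listed in the authors' deposited table with a level A of 5.72, a level B of 24.0 and a shared level of 15.7. For DROSHA the corresponding deposited values were a level A of 21.4, a level B of 6.72 and a shared level of 23.3. The levels have no stated unit or depth, so they are compared here within a gene and not between genes. No group has a second library, so replicate error is unknown and no p-value is given. The authors added 1 to each level before taking the ratio, which shrinks the fold changes of genes whose levels are near 1, and 5 of the 8 members have a shared level under 5. Both forms are therefore given, the deposited log2 fold change with 1 added and the plain ratio of the levels. Of the HEK293 markers 6 of 8 are listed (PAX2 and LHX1 are not), and of 9 markers of other cell types only CD68 is.

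The ETV genes and DUSP6 were the members with the lowest fold changes in the first comparison. ETV5 fell past 2-fold there and was the only member that did, while SPRY2 and FGFR1 stood near or above 0. In the second comparison no member passed 2-fold in either direction. These fold changes were in view when the genes were chosen, so their values are a description.

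**Figure D1:**
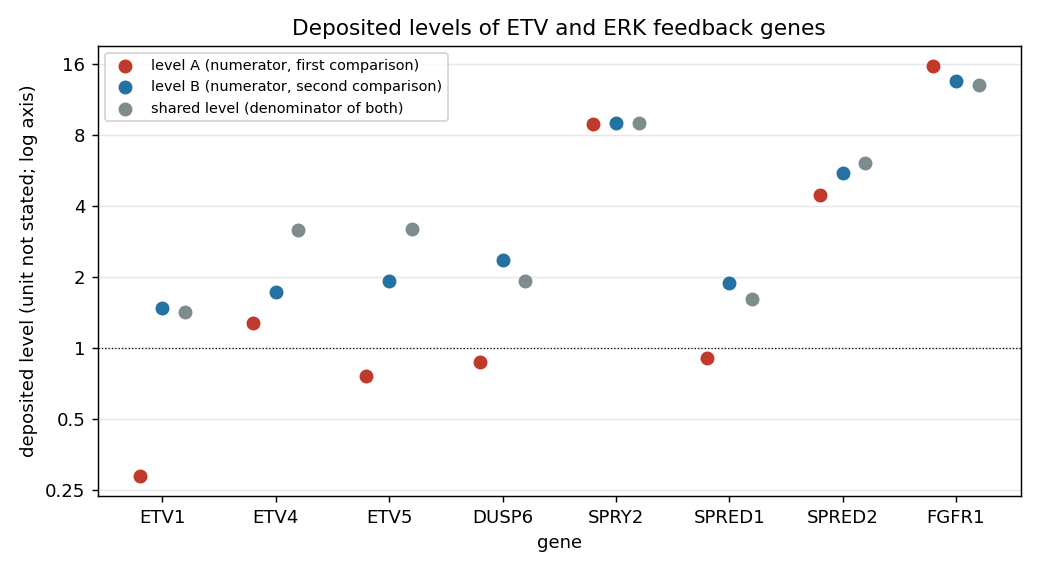
Deposited levels of the 8 listed genes on a log axis (unit not stated), with level A in red, level B in blue and the shared level in grey, 1 point per column of the table. For ETV1, ETV5, DUSP6 and SPRED1, level A lies under the dotted line at 1 while level B and the shared level lie above it. The shared level is above 1 for every gene of the table, the lowest being 1.0005, so only levels A and B can fall under the line.

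ETV5 is an ETS activator that ERK phosphorylates, and it is also a transcript raised by ERK. The authors' deposited table gives it a level A of 0.760, a level B of 1.92 and a shared level of 3.19. Level A was thus the lowest and the shared level the highest, with level B between them. Its deposited log2 fold changes were -1.25 for level A and -0.52 for level B. The value for level A ranked 8 from the lowest of 12040 genes. The plain ratio put level A 4.19-fold below the shared level and level B 1.66-fold below it. ETV5 was 1 of 20 genes at or beyond 2-fold lower in the first comparison, a background of 0.166% of all listed genes, while 21 genes, 0.174%, were at or beyond 2-fold higher.

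ETV1, which shares its DNA-binding ETS domain with ETV4 and ETV5, was listed by the authors with a level A of 0.288, a level B of 1.48 and a shared level of 1.42. Level A stood apart, and level B and the shared level were close together. The deposited log2 fold changes were -0.91 and 0.03 in the first and second comparison. As a plain ratio level A was 4.93-fold below the shared level, which ranked ETV1 at 4 from the lowest by that measure, against 25 with 1 added.

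ETV4, the founding PEA3 protein, had a deposited level A of 1.27, a level B of 1.72 and a shared level of 3.16. Here levels A and B were both below the shared level and near each other. The authors' log2 fold changes were -0.87 and -0.61, at ranks 30 and 412 from the lowest. The plain ratio was 2.49-fold lower for level A and 1.84-fold lower for level B. Both comparisons share their denominator, so the shared level of ETV4, like that of ETV5, enters both values.

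DUSP6 encodes a phosphatase that removes the activating phosphates from ERK in the cytoplasm. Its deposited levels were 0.873 for level A, 2.37 for level B and 1.92 for the shared level. Level B and the shared level differed less from each other than either did from level A. The authors' log2 fold changes were -0.64 and 0.20, and the plain ratio placed level A 2.20-fold below the shared level.

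SPRED1 and SPRED2 are relatives of the Sprouty proteins, and SPRED1 is known to bring neurofibromin to the membrane, where it switches RAS off. SPRED1 was listed by the authors with a level A of 0.906, a level B of 1.89 and a shared level of 1.62. Its deposited log2 fold changes were -0.46 and 0.14, and its level A was 1.78-fold below the shared level as a plain ratio. SPRED2 had a deposited level A of 4.44, a level B of 5.51 and a shared level of 6.09. Its authors' log2 fold changes of -0.38 and -0.12 changed little without the added 1, to -0.46 and -0.15. Both genes thus lay below 0 in the first comparison without reaching 2-fold on either scale.

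SPRY2, an inhibitor of receptor signalling to RAS, was nearly level across the table. The authors' deposited level A was 8.89, level B 9.01 and the shared level 8.96, with log2 fold changes of -0.01 and 0.01. FGFR1, the receptor at the head of the cascade, had a deposited level A of 15.6, a level B of 13.5 and a shared level of 12.9. Its authors' log2 fold changes were 0.25 and 0.05, which made it the highest member in the first comparison. SPRY2, FGFR1 and SPRED2 are also the members with a shared level above 5, and they were the 3 highest in the first comparison.

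**Figure D2:**
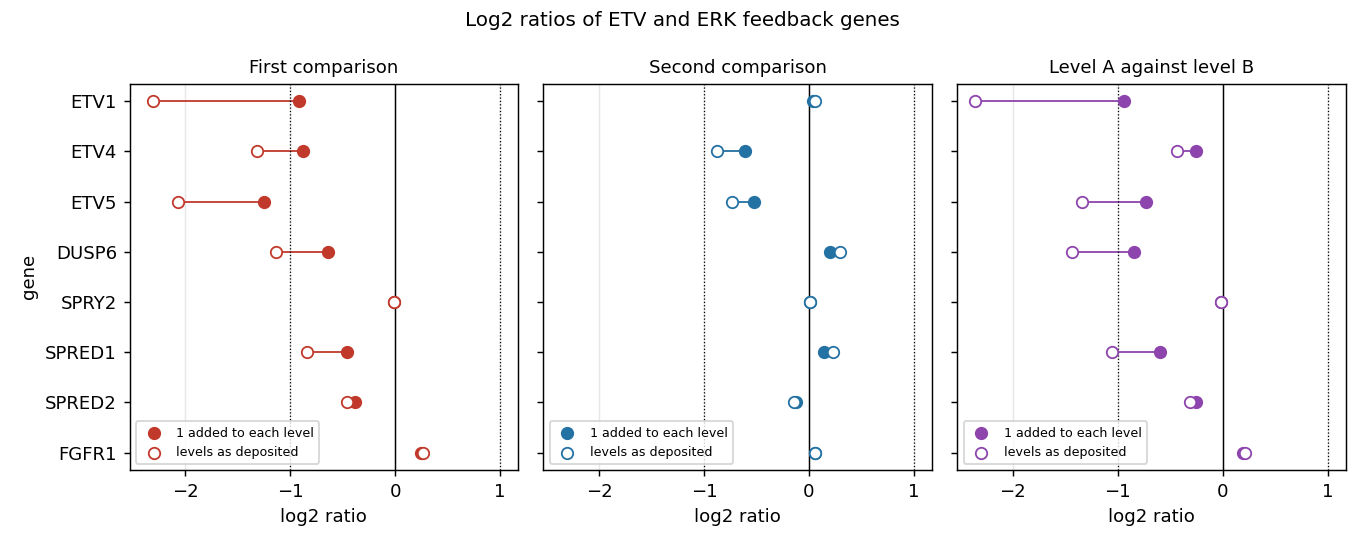
Log2 ratios of the 8 genes in the first comparison, the second comparison and between levels A and B, with filled points for ratios after 1 was added to each level and open points for levels as deposited; dotted lines mark 2-fold. Open points of ETV1, ETV4, ETV5 and DUSP6 pass the line on the low side in the first panel, where ETV5 alone passes it as a filled point.

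The number of members past 2-fold depended on the added 1. With it, 1 of 8 was past 2-fold lower in the first comparison. Without it, ETV1, ETV4, ETV5 and DUSP6 were, 4 of 8, beside a background of 58 of 12040 genes, 0.482%, and 40 genes were past 2-fold higher. Among the 3613 genes whose shared level is under 5, where adding 1 weighs most, 36 were past 2-fold lower without it, 0.996%. These 4 genes ranked between 4 and 38 from the lowest of all listed genes by the plain ratio. At 1.5-fold with 1 added the same 4 genes were counted, beside a background of 1.3%. The lowest shared level in the table is 1.0005, while levels A and B were below 1 in 178 and 298 genes. No gene with a shared level under 1 is listed, so a level A or B under 1 is seen only beside a shared level above it. The opposite pattern, a shared level under 1 beside a higher level A or B, cannot appear. Lower and higher calls near 1 were thus not open alike. How far that moves the ratios of these members, or their counts beside the background, was not tested.

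Over the 8 members the median log2 fold change in the first comparison was -0.55, against 0.03 over all listed genes, and 7 of 8 members were below 0, against 43.4% of all listed genes. In the second comparison the median was 0.02, against 0.01 over all listed genes, and 3 of 8 were below 0, against 48.9%. ETV4 and ETV5 were the lowest members there. With 1 added, ETV4 alone was past 1.5-fold lower in the second comparison, beside a background of 3.85%. As a plain ratio ETV4 and ETV5 were both past 1.5-fold lower, beside 7.17%. No member was past 2-fold lower in the second comparison, beside backgrounds of 0.748% with 1 added and 1.92% without. None was past 2-fold higher, beside 0.0831%.

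**Figure D3:**
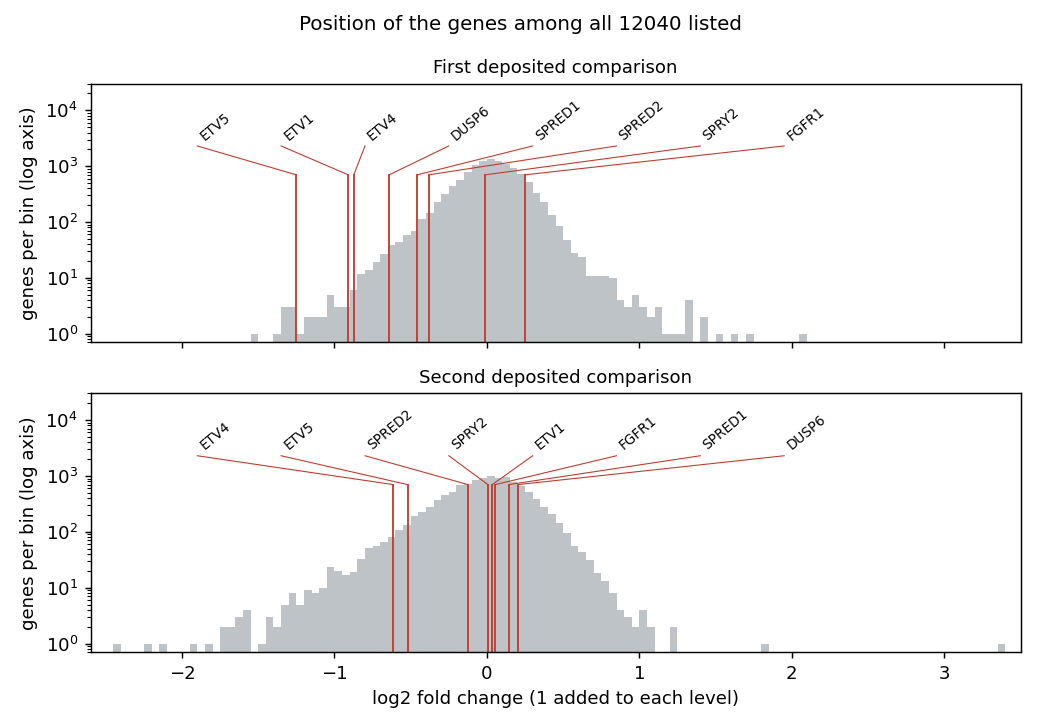
Distribution of the deposited log2 fold changes of all 12040 genes in the first (top) and second (bottom) comparison, as genes per bin on a log axis, with the 8 members marked by red lines. ETV5, ETV1 and ETV4 lie in the low tail of the top panel, from -1.25 to -0.87, and ETV4 and ETV5 are the lowest of the members in the bottom panel.

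Setting level A against level B removes the shared column. ETV1 was 5.13-fold lower in level A by the plain ratio, DUSP6 2.71-fold, ETV5 2.53-fold and SPRED1 2.08-fold. ETV4 was 1.35-fold lower and SPRED2 1.24-fold, while SPRY2 was close to equal at a ratio of 0.987 and FGFR1 was at 1.16. ETV4, which stood with ETV1 and ETV5 in the first comparison, thus did not stand with them here. By the plain ratio 4 of 8 members were past 2-fold lower in level A, beside a background of 0.855%. With 1 added none was, beside 0.349%, and the log2 values of ETV1, DUSP6, ETV5 and SPRED1 were -0.94, -0.85, -0.73 and -0.60. These 4 genes were past 1.5-fold lower with 1 added, beside a background of 2.96%. The member median was -0.43, against 0.02 over all listed genes.

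By distance over the 2 deposited log2 fold changes, and among genes with a shared level of at least 5, C15orf38 was closest to ETV5 (distance 0.13), at -1.32 and -0.62 in the authors' deposited table. NEK7, a kinase of the NIMA family, followed at a distance of 0.17, with authors' values of -1.11 and -0.42. CHCHD8, SQSTM1 and INSIG1 came next at distances of 0.37, 0.39 and 0.42, each with a second fold change nearer to 0 than that of ETV5. In the ranking of the first comparison, SQSTM1 and CYCS stood just below ETV5, and CHCHD8 and FAM18B1 just above it. Likeness over so few values describes these libraries and says nothing of the genes' relation.

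Other transcripts known to be raised by ERK were compared, with the members left out. Of 33 such as JUN, EGR1, MYC and CCND1, 24 are in the table, with medians of 0.04 and 0.01, against 0.03 and 0.01 over all listed genes. DUSP4, DUSP5, SPRY1 and ELF1 are among them and are counted again in lists that follow. None was past 2-fold in either comparison. Over all listed genes 0.166% were past 2-fold lower and 0.174% higher in the first and 0.748% and 0.0831% in the second, so a count of 0 in this list, or in the lists that follow, is at the background. The lowest in the first comparison were IER3, an early response gene, at -0.37 and MAFG at -0.17 in the authors' deposited table. The highest were TRIB1, a pseudokinase, at 0.72 and SPHK1, a sphingosine kinase, at 0.47, also as deposited. For level B the authors' table had SPHK1 at -0.63 and FOSL1, an AP-1 subunit, at -0.61 at the low end, and DUSP5 at 0.76 and EPHA4 at 0.45 at the high end. SPHK1 alone was past 2-fold between levels A and B, with a log2 ratio of 1.11 and so higher in level A, beside a background of 1.31% past 2-fold higher. Without the added 1, FOSL1 was past 2-fold lower in the second comparison, at a log2 ratio of -1.32, beside a background of 1.92%. Both SPHK1 and FOSL1 were past 2-fold higher in level A than in level B without it, at 1.52 and 1.14, beside 2.7%. FOSL1 is near the floor, with a level B of 0.548 and a shared level of 1.37, where the added 1 weighs most.

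CIC, the repressor of PEA3 and feedback genes, was the highest gene of its list in the first comparison. The authors' deposited table gave CIC a level A of 20.0, a level B of 13.0 and a shared level of 13.1. Level A was above the other levels, which were nearly equal, and the deposited log2 fold changes were 0.57 and -0.01. The first is short of 1.5-fold with 1 added. As a plain ratio it is just past 1.5-fold, at a log2 of 0.61, beside a background of 1.73% past 1.5-fold higher. Level A against level B was at 0.62 as a plain ratio, beside a background of 9.39% past 1.5-fold higher. The part of CIC in the values of the ETV genes was not tested. CIC works with the ataxin proteins, and the authors listed ATXN1L at -0.08 and 0.19 and ATXN1 at 0.17 and 0.72. The PEA3 proteins are degraded through the ubiquitin ligase COP1, listed as RFWD2 at -0.26 and 0.15 in the authors' table, with the scaffolds CUL4A at 0.06 and -0.19 and CUL4B at 0.24 and -0.17. MED25, a Mediator subunit that PEA3 proteins contact, was at 0.38 and -0.09 as deposited. Of the 12 genes in this list 11 are in the table, none was past 2-fold, and the medians were 0.11 and 0.01.

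In the first comparison the rest of the ETS family lay closer to 0 than ETV1, ETV4 and ETV5 did. Among 26 other genes of ETS factors and partners, 14 are in the table, with medians of 0.09 and -0.05, and none was past 2-fold, which is at the background. In the authors' deposited table ELK4 at -0.19 and ETV6 at -0.17 were lowest in the first comparison, and ERF, an ETS repressor that ERK controls, at 0.34 and ELK1 at 0.32 were highest. In the second, ELF4 at -0.41 and ETS1 at -0.40 were lowest and GABPB2 at 0.21 and ELF1 at 0.17 highest, as the authors deposited them. These genes were grouped by family name, and the difference between them and the PEA3 genes was not tested.

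DUSP6 was below 0 in the first comparison and above 0 in the second. Of 9 other dual-specificity phosphatases sought 7 are in the table, and all 7 were above 0 in the first comparison, with a median of 0.23, where 43.4% of all listed genes were below 0. Re-centred on the median of all listed genes, 6 of 7 were above 0 and DUSP4 was at -0.02. They ran from DUSP4 at 0.01 and DUSP5 at 0.06 to DUSP7 at 0.26 and DUSP1 at 0.28 in the authors' deposited table. In the second comparison 6 of 7 were below 0, with a median of -0.17, where 48.9% of all listed genes were below 0. DUSP9 at -0.67 and DUSP16 at -0.56 were lowest there, and DUSP8 at -0.11 and DUSP5 at 0.76 highest, as deposited by the authors. None was past 2-fold in either comparison. Between levels A and B, DUSP9 alone was past 2-fold as a plain ratio, higher in level A at a log2 of 1.16, beside a background of 2.7%. With 1 added none was.

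Of 30 genes from RAS to ERK and its substrate kinases, 29 are in the table, with medians of 0.08 and 0.04. None was past 2-fold, a count that the low shares over all listed genes also give for a list of this size. NRAS at -0.40 and LAMTOR3, a MEK scaffold, at -0.36 were lowest in the first comparison in the authors' deposited table, and RPS6KA2 at 0.38 and RPS6KA5 at 0.36 highest. In the second, ARAF at -0.84 and MAPK7 at -0.42 were lowest and RPS6KA5 at 0.65 and RPS6KA4 at 0.57 highest, as deposited by the authors. Another list held 35 FGF receptors, ligands, adaptors, heparan sulphate enzymes and genes that only share a name with these, such as FGFR1OP2. Of these 35 genes 28 are in the table, with medians of 0.03 and -0.02. Their deposited values ran from HS2ST1 and FGFBP3, both at -0.19, to FGF13 at 0.29 and GAB1 at 0.25 in the first comparison. The authors' second values ran from FGFR3 at -0.53 and FGFBP3 at -0.40 to FGFR1OP2 at 0.50 and FGF2 at 0.43. Of 23 other brakes on receptor and RAS signalling 21 are in the table, with medians of 0.07 in each comparison. In the authors' table CBL, a ubiquitin ligase for receptors, was lowest at -0.27 and -0.65, next to RASA2 at -0.23 in the first comparison and DAB2IP at -0.39 in the second. Highest were LRIG1 at 0.29 and RASA3 at 0.23 in the first and RASAL2 and RASA1, both at 0.36, in the second, as deposited.

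**Figure D4:**
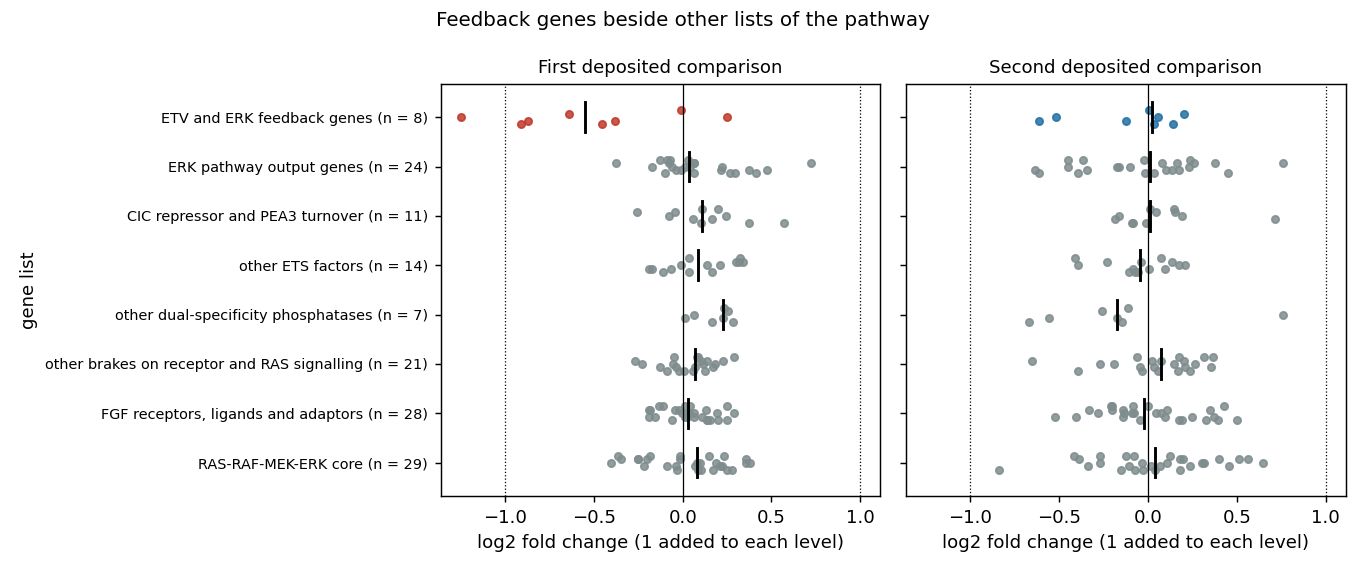
Deposited log2 fold changes of the 8 members (coloured) and of 7 other gene lists (grey) in the first (left) and second (right) comparison, 1 point per gene, with black bars at medians and dotted lines at 2-fold. The member median of -0.55 in the left panel lies below every other list median, which run from 0.03 to 0.23. Members and lists were chosen with earlier results of these data known, so the gap between the medians is a description and not a test.

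CIC binds octamers of the form TGAATGAA, with variation at the second and the seventh base, and promoter windows of the members were searched for TGAATGAA, TGAATGGA, TCAATGAA and TCAATGGA on both strands. They have equal length, so none is contained in another. The RefSeq promoter table (GRCh38.p14) holds windows of 300 bases, from 250 before the start to 50 after it, for 5 of the 8 listed members: ETV1, DUSP6, SPRY2, SPRED1 and SPRED2. An octamer was found for 2 of them, ETV1 and DUSP6, while 3.37% of the 9655 listed genes with a window held an octamer (325 genes). Genes with more windows have more places for a match. ETV1 has 6 windows, SPRY2 has 3, SPRED2 has 2, and DUSP6 and SPRED1 have 1 each. By window, 2.42% of the 14231 windows of listed genes held an octamer. DUSP6 carried TCAATGGA at 2 places of its only window, on the strand opposite to the one shown, so it reads as TCCATTGA on the strand shown. ETV1 carried TGAATGGA in 1 of 6 windows, on the strand shown. All 5 members with a window were below 0 in the first comparison, including SPRED1 at -0.46, SPRED2 at -0.38 and SPRY2 at -0.01, which hold no octamer. Fold changes of octamer holders among all listed genes were not compared. Both windows with an octamer are printed with the octamers in capitals, because they hold the letters of a CIC octamer. They are the DUSP6 window at chr12:89352452-89352751 and the ETV1 window at chr7:13991376-13991675, each on the minus strand of GRCh38.p14.

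DUSP6: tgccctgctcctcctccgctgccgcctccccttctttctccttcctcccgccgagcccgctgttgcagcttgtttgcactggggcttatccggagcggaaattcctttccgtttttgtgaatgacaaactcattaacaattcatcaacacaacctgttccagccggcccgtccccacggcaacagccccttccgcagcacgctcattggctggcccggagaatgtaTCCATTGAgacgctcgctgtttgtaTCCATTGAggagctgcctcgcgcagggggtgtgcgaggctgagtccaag
ETV1: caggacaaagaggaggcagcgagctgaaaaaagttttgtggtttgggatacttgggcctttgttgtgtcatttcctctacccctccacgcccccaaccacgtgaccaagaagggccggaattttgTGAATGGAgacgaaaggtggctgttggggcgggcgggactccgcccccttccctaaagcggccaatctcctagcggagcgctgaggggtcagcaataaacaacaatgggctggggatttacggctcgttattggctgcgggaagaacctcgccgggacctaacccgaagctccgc

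In DUSP6 the octamers begin 24 bases before the start and 1 base after the start. In ETV1 the octamer begins 125 bases before it. The ETS word CCGGAAG was in no window of these 5 members on either strand, while 23.4% of listed genes with a window held it. Only this exact word was searched, so shorter or variant ETS sites can be present, and the ETV1 window shown holds ccggaa. A match is a run of letters, and binding was not measured here.

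RNA interference can lower transcripts whose 3′ untranslated region matches the seed of the transfected RNA. An earlier look at this table picked CAATCTA and AATCTAA as the 7-base words whose carriers were lowest in the first comparison, and GTGACTT and TGACTTA for the second. The words of each pair overlap by 6 bases. In GENCODE release 29, with 1 transcript per gene, 14.4% of 10377 listed genes with an annotated region of at least 50 bases carried a word of the first pair. Their median log2 fold change in the first comparison was -0.10, and a low value follows from how the words were picked. ETV1, SPRED1 and FGFR1 were the members that carried one. SPRED1 and ETV1 have the longest regions of the members, at 5585 and 4638 bases, and longer regions hold more words. ETV5, ETV4 and DUSP6 carried neither, nor did SPRY2 or SPRED2. The words of the second pair, carried by 20.9% of those genes, were found in none of the 8 members. The part of these matches in the values of ETV1 and SPRED1 was not tested, and FGFR1, which carries AATCTAA, was above 0. The sites of CAATCTA in ETV1 (chromosome 7) and SPRED1 (chromosome 15) are printed as 30 bases on the transcript strand, with the word in capitals. They show the letters around the word only. CAATCTA was picked on these same fold changes, so sharing it with other low genes follows from that choice.

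ETV1: caaaaaaacccCAATCTActgtaaatggca
SPRED1: acagttgatttCAATCTAagaaaagttaac

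Both knockdowns target enzymes that make miRNAs, so matches to the seeds (bases 2 to 8) of 10 miRNAs were searched in the same regions. ETV5 had 1 match to miR-17-5p and 2 to miR-19a-3p, and ETV1 had 1 match to each of miR-17-5p, miR-19a-3p and miR-15a-5p. SPRED1, with the longest region at 5585 bases, had 6 matches to 4 miRNAs, while ETV4, with the shortest at 675 bases, had none, and SPRED2 had none. SPRY2 matched miR-21-5p and miR-27a-3p, each at 1 place, and DUSP6 matched miR-181a-5p. FGFR1 matched miR-17-5p and miR-15a-5p. Matches to miR-17-5p were in 4 of 8 members, against 23.4% of genes with a region, and matches to miR-19a-3p in 2 of 8, against 15.0%. For miR-15a-5p they were in 3 of 8, against 23.7%, and for miR-181a-5p, miR-27a-3p, miR-10a-5p, miR-92a-3p and miR-21-5p in 1 of 8 each, against 20.9%, 17.0%, 13.2%, 11.9% and 9.20%. With no match in any member, let-7a-5p and miR-126-3p had matches in 10.3% and 0.231% of genes. The median region length was 1191 bases over all those genes, and longer regions hold more matches. The miRNAs are printed with the seed in capitals and the ETV5 sites (chromosome 3) with the matching bases in capitals. ETV5 was picked because it alone was past 2-fold lower in the first comparison with 1 added. The part of these matches in the values of ETV5 or of any other member was not tested.

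miR-17-5p: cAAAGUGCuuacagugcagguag
miR-19a-3p: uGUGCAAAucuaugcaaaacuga
ETV5 site for miR-17-5p: ggataaggggtGCACTTTatagctatggaa
ETV5 first site for miR-19a-3p: aagggctctgaTTTGCACaatttgttgaaa
ETV5 second site for miR-19a-3p: ctgatggaacaTTTGCACctgagttgtaca

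**Figure D5:**
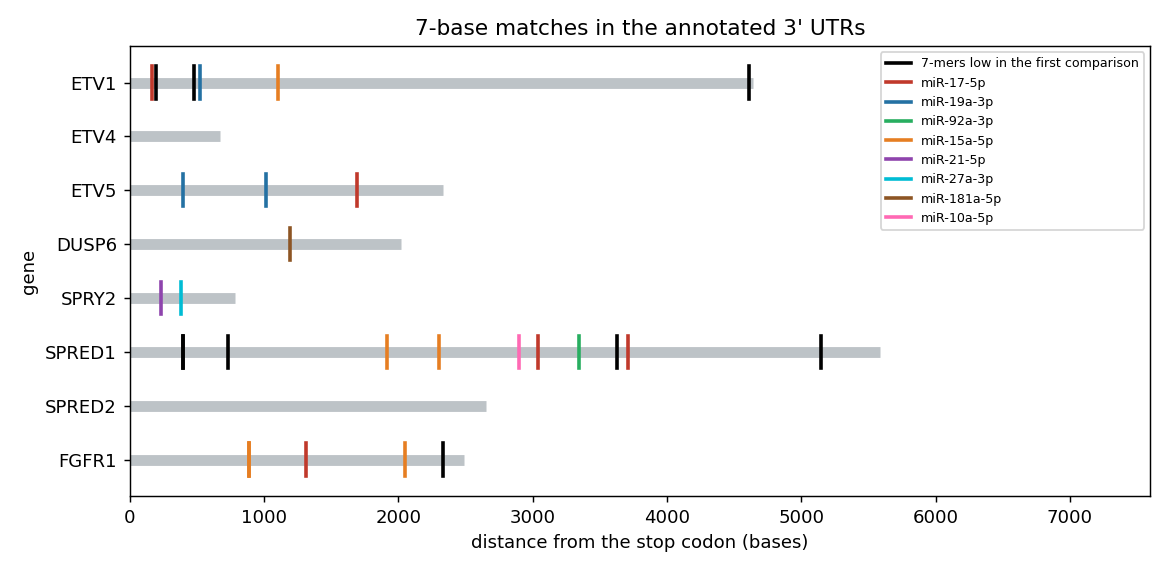
Annotated 3′ untranslated regions of the 8 genes (grey bars, GENCODE release 29), drawn by distance from the stop codon in bases, with ticks at 7-base matches to miRNA seeds (coloured) and to the words low in the first comparison (black). Black ticks are in ETV1, SPRED1 and FGFR1, and ETV5 carries ticks for miR-17-5p and miR-19a-3p only.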

How the data were processed

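Poly(A) RNA of 3 libraries (DICER1 knockdown, DROSHA knockdown and mock, 1 each) was sequenced after TruSeq preparation, per the labels' protocols. Tools in the submitters' processing notes, given without roles, are Cufflinks, Cuffdiff 2.1.1, TopHat2 2.06, SAMtools and CASAVA 1.8.2, with build hg19. The deposited table has no header. The authors' deposited log2 fold changes equal the log2 ratio of the level columns after 1 was added, within 1e-11 for all 12040 genes. No level column names a sample, so the 3 columns are identified by their place in those ratios, and none was tied to a knockdown or to mock. Their unit and depth are not given in the sources used here, and counting error cannot be stated. Ratios were computed with Python 3.11.15, numpy 2.4.6 and pandas 2.3.3. Only the arithmetic, without the added 1, was checked on simulated levels that held no noise.

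Members, lists and tests were chosen with earlier results of these data known. A change is called at 2-fold. Named genes are the members, DICER1, DROSHA, the 2 highest and 2 lowest of each list per comparison, genes past 2-fold, the 5 genes nearest to ETV5 and its neighbours in rank. Promoters and miRNAs came from RefSeq (GRCh38.p14) and transcripts from GENCODE release 29, matched by symbol, with 1 transcript per gene chosen by APPRIS rank and then by the longest 3′ region. Pseudocounts, centring, scaling and thresholds were varied.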

Additional observations from a re-analysis of the deposited data

How the results depend on the processing

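No paired analysis was possible because each group has 1 library. Of the 8 members, 1 was past 2-fold in the first comparison, 0 in the second and 0 between levels A and B. With a pseudocount of 0.1 these counts were 4, 0 and 3, with no pseudocount (added after the data were seen) 4, 0 and 4, and with a pseudocount of 5 they were 0, 0 and 0. A threshold of 1.5-fold gave 4, 1 and 4. Among the 3 members with a shared level of 5 or more, 0 were past 2-fold in any of the comparisons. Re-centring on the median of all listed genes and scaling by the upper quartile left the counts at 1, 0 and 0. No member past 2-fold changed sign. Over all genes, 20 were lower and 21 higher past 2-fold in the first comparison with 1 added, and 58 and 40 without. In the second the counts were 90 and 10 with 1 added and 231 and 21 without, and between levels A and B they were 42 and 158, then 103 and 325. The low levels and the unknown depth limit what the ratios of ETV1, ETV5, DUSP6 and SPRED1 can show. Searching every coding transcript in place of 1 added a second-pair word in FGFR1 and no other match to a further member.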
